A study of Mus musculus with 2 samples.

Results

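Car1 and Car2, the genes of mouse carbonic anhydrases 1 and 2, were described cell by cell in bone marrow progenitors of a GATA-1 knock-in and of wild type. They are 2 of the 31053 genes in the files and 2 of 16 genes with a carbonic anhydrase symbol, and were taken by symbol. The knock-in library (KI) is labelled as a GATA-1 mutation knock-in, which the series title calls 2RA, and the other library (WT) as wild type. Both hold bone marrow cells sorted as Lin- Kit+, meaning progenitors that lack the surface markers of mature lineages and carry the stem cell factor receptor Kit. Strain, sex, age and the number of animals pooled are not given in the labels. There is 1 library of each genotype, so no difference between KI and WT below has a replicate check, and every interval covers counting error only.

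Carbonic anhydrases catalyse the reversible reaction of carbon dioxide and water to bicarbonate and a proton. Car1 and Car2 are the cytosolic forms of red blood cells, where they speed the loading and release of carbon dioxide, and Car2 is the faster enzyme. Car1 is widely used as a marker of committed erythroid progenitors, whereas Car2 is also found in many tissues outside blood, such as osteoclasts and kidney.

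The genes are neighbours on mouse chromosome 3 (mm10, GENCODE M21 annotation). Car1 (ENSMUSG00000027556) lies at chr3:14766216-14808368 on the minus strand. Car2 (ENSMUSG00000027562) lies at chr3:14886273-14900770 on the plus strand. Their annotated start sites are 77.9 kb apart and point away from each other, with Car3 between them. The longest run of bases that their longest transcripts share is 15, and the longest that Car2 shares with any family member is 30, with Car13.

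The files held 6640 KI barcodes with 48005467 UMIs and 7471 WT barcodes with 70543211 UMIs, where a UMI marks 1 captured RNA molecule. Filtering left 5491 KI cells, whose median was 5280 UMIs, and 5471 WT cells, whose median was 9612 UMIs. The libraries shared 10 barcode sequences, of which 5 were kept in both. More WT than KI barcodes exceeded the mitochondrial limit (11.4% of KI and 23.0% of WT). Doublet calling removed 290 KI cells and 164 WT cells by different rules, because the automatic call marked only 0.173% of KI cells. Gata1 itself stood at 148 CPM (UMIs per 1000000 UMIs) in KI and 153 CPM in WT erythroid cells, and an RNA level does not check the mutation, whose nature the labels do not give.

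Cells were clustered jointly without the carbonic anhydrase genes, and clusters were named from marker lists that hold neither gene. Erythroid cells numbered 1224 in KI and 1292 in WT. All 20 erythroid markers were higher there than in the other cells of the same library. The name was given from this same list, so this is not independent support for it. In KI the erythroid cells lay mostly in clusters 5 and 10, and in WT in clusters 3 and 12. Nearly every large erythroid cluster thus came from 1 library. Clusters 0 and 11 (1383 and 433 KI cells, 30 and 0 WT cells) and cluster 2 (22 KI and 836 WT cells) were left without a name, as was cluster 18, led by interferon-response genes. Clusters 2 and 18 had no erythroid marker among their 10 leading genes, and clusters 0 and 11 had 1 basophil and mast marker there without most of that list being raised. They are given below as the 4 unnamed clusters, chosen for having at least 50 cells and at least 100 CPM of Klf1. Clusters 19 (32 KI cells and 1 WT cell) and 20 (17 KI and 5 WT cells) were also unnamed and did not meet this rule. A set of 7 erythroid genes was also read (Klf1, Ermap, Blvrb, Epor, Cldn13, Rhd and Tfrc). Its median in the 4 clusters was 49.4% of the erythroid level in KI and 48.7% in WT. Klf1 is 1 of the 7, so this level is not independent of how the clusters were chosen. A cluster that comes from 1 library may reflect that library rather than a cell type.

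Car1 and Car2 were both abundant in erythroid cells, at close to equal levels in each library and with small differences between the libraries. Car1 had 65825 UMIs or 3202 CPM in KI erythroid cells, against 96974 UMIs or 3426 CPM in WT (95% intervals 3177 to 3226 and 3404 to 3447). Car2 had 73718 UMIs or 3585 CPM in KI, against 92345 UMIs or 3262 CPM in WT (3560 to 3611 and 3241 to 3283). The log2 ratio of KI over WT was -0.10 for Car1 (-0.11 to -0.08) and 0.14 for Car2 (0.12 to 0.15), a 0.935-fold and a 1.1-fold level. The median gene had a log2 ratio of 0.04 over 10128 genes. Neither gene was 2-fold apart between the libraries, and 4.23% of those genes were. The Car2 difference depended on how cells entered the class. It was 0.0025 with doublets kept and 0.05 with the top 5% of doublet scores removed from both libraries, whereas the Car1 value stayed between -0.20 and -0.06 under all alternatives.

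**Figure D1:**
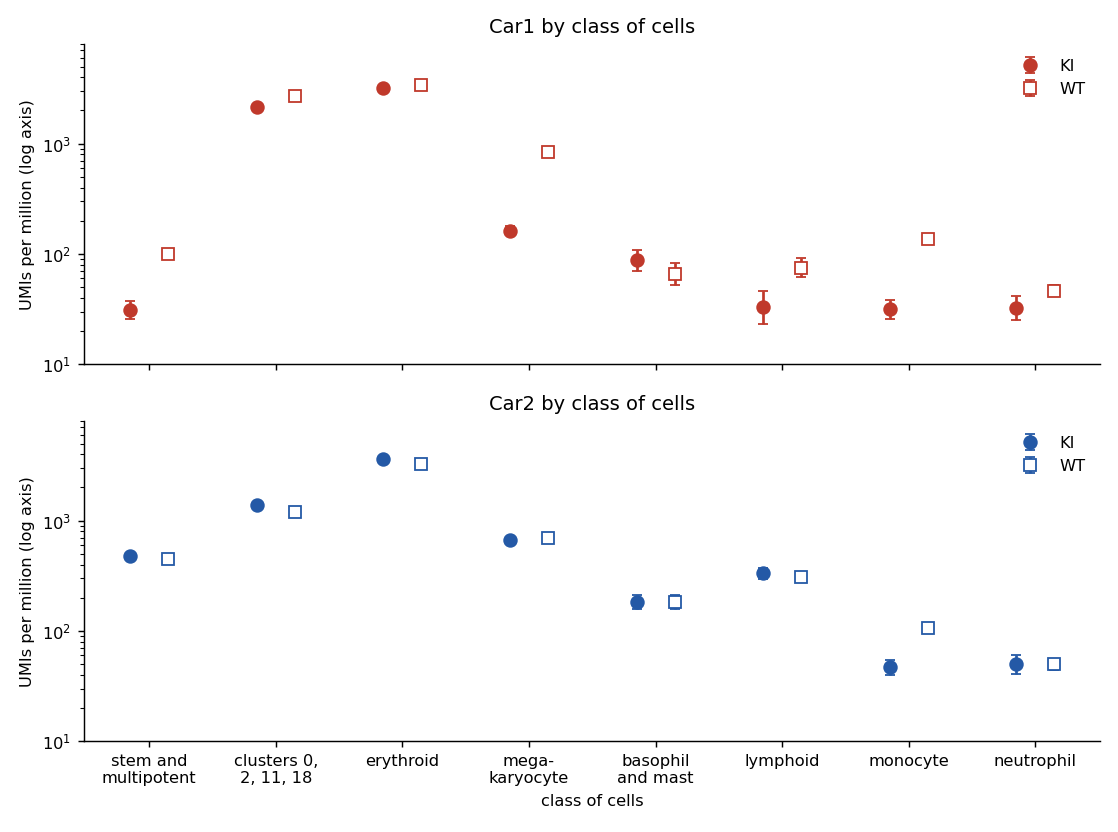
CPM of Car1 (top) and Car2 (bottom) in each class of cells, on a log axis, with filled circles for KI, open squares for WT and bars for 95% Poisson intervals of the summed count. Car1 falls from above 3000 in erythroid cells to between 31.3 and 138 in stem, basophil, lymphoid, monocyte and neutrophil cells, while Car2 keeps intermediate levels in stem, megakaryocyte and lymphoid cells.

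The order of Car2 levels across classes was nearly the same in the 2 libraries. After erythroid cells came the 4 unnamed clusters with 1395 CPM in KI and 1200 CPM in WT. Megakaryocyte cells followed with 671 CPM in KI and 700 CPM in WT, then stem and multipotent cells with 473 CPM in KI and 452 CPM in WT. Lymphoid cells had 332 CPM in KI and 309 CPM in WT. Basophil and mast cells had 183 CPM in each library. Neutrophil cells had 49.9 CPM in each library, and monocyte cells had 47.0 CPM in KI and 107 CPM in WT. Neighbours in this order were separated beyond counting error in both libraries, except neutrophil and monocyte cells in KI. The WT separation of that pair was carried by 24 monocyte cells of 10 or more Car1 UMIs, which held 59.8% of the class's Car2 UMIs. Without such cells Car2 stood at 45.3 CPM in WT monocyte and 45.1 CPM in WT neutrophil cells.

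Car1 had a steeper profile. It reached 2147 CPM in KI and 2727 CPM in WT in the 4 unnamed clusters, then dropped to 162 CPM in KI and 835 CPM in WT megakaryocyte cells. Basophil and mast cells had 87.8 CPM in KI and 66.3 CPM in WT. In KI the remaining classes could not be ordered: lymphoid cells had 33.2, neutrophil cells 32.5, monocyte cells 31.4 and stem and multipotent cells 31.3 CPM, with overlapping intervals. In WT, monocyte cells had 138, stem and multipotent cells 99.4, lymphoid cells 75.3 and neutrophil cells 46.5 CPM, and the stem and lymphoid intervals overlapped slightly. This WT order rested on a few cells. Without cells of 10 or more Car1 UMIs, a limit chosen after seeing the data, lymphoid cells were highest at 75.3 CPM. Stem cells followed at 62.9, monocyte cells at 41.7 and neutrophil cells at 34.2 CPM. The limit was set on Car1 itself and on counts before thinning, so the deeper WT cells reach it more readily. Levels and ratios without such cells, here and elsewhere, are therefore partly set by the limit.

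In stem and multipotent cells the 2 genes therefore stood far apart. Car2 was seen in 73.4% of KI and 80.1% of WT stem cells, and in 58.8% and 62.5% once each cell was thinned to 3000 UMIs. Neutrophil cells were taken as the background class: after thinning, 16.04% of KI and 11.4% of WT neutrophil cells held a Car2 UMI. Median depth before thinning was 3918 UMIs in KI and 5780 in WT stem cells, against 9379 in KI and 10833 in WT neutrophil cells. The thinned share of Car1 in stem cells was 9.06% in KI (6.95 to 11.6) and 19.4% in WT (16.6 to 22.4), against 10.8% of KI and 9.49% of WT neutrophil cells. The unthinned Car1 shares were 13.3% in KI and 31.9% in WT stem cells, and 25.2% in KI and 29.8% in WT neutrophil cells. After thinning, the KI stem cell share of Car1 was thus not above the neutrophil share, and the WT share was. Before thinning the WT shares were close. Thinning does not remove RNA that entered from outside a cell, whose part can be larger in shallower cells. Whether Car1 in WT stem cells stood above background was therefore not tested.

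Car1 was lower in KI than in WT stem and multipotent cells by more than 2-fold. The 121 KI and 541 WT UMIs gave 31.3 and 99.4 CPM, a log2 ratio of -1.67 (-1.96 to -1.38), and 1.97% of the 9301 genes compared in this class were 2-fold apart in either direction. Car2 gave a log2 ratio of 0.07 (-0.02 to 0.15) in the same cells. Some erythroid genes were also lower in KI. Aqp1 had a log2 ratio of -1.15 (-1.88 to -0.47), and Ermap had 1.81 CPM in KI and 5.51 CPM in WT. Blvrb went the other way, with 49.2 CPM in KI and 45.9 CPM in WT. The progress score below uses 20 erythroid genes, without Aqp1. Of these, 10 had enough UMIs to compare and none was 2-fold apart (median log2 ratio -0.099). Whether Car1 fell together with erythroid genes was not tested. Of the WT Car1 UMIs, 38.3% came from 9 cells with 10 or more, while no KI stem cell held that many. Those cells had 74.5 CPM of Klf1 and 13812 UMIs at the median, against 5666 in the other WT stem cells. Without them WT had 62.9 CPM and the log2 ratio was -1.01 (-1.32 to -0.70).

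In megakaryocyte cells, too, Car1 was lower in KI than in WT, and the difference was carried by a minority of cells. Car1 had 162 CPM in KI and 835 CPM in WT, a log2 ratio of -2.37 (-2.51 to -2.22), in a class where 2.8% of 8366 genes were 2-fold apart. Among erythroid genes, Ermap was also lower in KI, at 18.9 CPM against 81.2 CPM in WT. Blvrb had 136 CPM in KI and 230 CPM in WT, whereas Tfrc had 15.2 CPM in KI and 14.7 CPM in WT. The Car2 log2 ratio was -0.06 (-0.15 to 0.02), but its direction depended on the setting: it was 0.27 at clustering resolutions of 0.6 and 1.6 and with doublets kept, 0.28 with the top 5% of doublet scores removed in both libraries and 0.18 without the cells of 10 or more Car1 UMIs. Cells with 10 or more Car1 UMIs numbered 11 of 510 in KI and 82 of 500 in WT, and they held 41.3% of the KI and 87.2% of the WT Car1 UMIs. Most of the signal lay in cluster 15, which had 345 CPM of Car1 in KI and 1375 CPM in WT, whereas cluster 6 had 66.3 CPM in KI and 134 CPM in WT. The WT cells with 10 or more Car1 UMIs carried 197 CPM of Klf1 and had 11898 UMIs at the median, against 42.2 CPM and 6584 UMIs in the other WT megakaryocyte cells. They nearly lacked Pf4, a platelet chemokine that marks megakaryocytes, at 19.7 CPM against 2578 CPM in the other WT cells of the class, and the 11 KI cells had no Pf4 UMI. Without these cells Car1 stood at 98.4 CPM in KI and 144 CPM in WT, a log2 ratio of -0.55 (-0.77 to -0.32). The ratio was -0.28 with doublets kept, and -0.81 and -0.78 at clustering resolutions of 0.6 and 1.6, so its size rested on which cells were counted as megakaryocytes.

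In myeloid cells both genes stood above the median of the 7 erythroid genes but within their range. Monocyte and neutrophil cells together held 0.994% of the erythroid Car1 level in KI and 3.07% in WT, and 1.34% of the erythroid Car2 level in KI and 2.66% in WT. The median of the 7 erythroid genes given above was 0.641% in KI and 2.49% in WT. Tfrc, the transferrin receptor of dividing cells, was the highest of the 7 at 26.4% in KI and 23.1% in WT. A few cells carried the WT values: 27 of 1569 WT and 1 of 571 KI myeloid cells had 10 or more Car1 UMIs. Without them WT myeloid cells held 1.14% of the erythroid Car1 level and 1.39% of the erythroid Car2 level. The WT median of 2.49% still includes these cells, and WT myeloid Klf1 was 6.78 CPM with them and 3.82 CPM without. The 24 such cells among WT monocytes held 71.2% of that class's Car1 UMIs, with 3824 CPM of Mpo (a granule enzyme of myeloid progenitors) and 93.5 CPM of Klf1 in the same cells. Their median depth was 23926 UMIs, against 11164 in the other WT monocyte cells. In WT neutrophil cells, where 3 cells held 10 or more Car1 UMIs, the levels were 1.36% for Car1 and 1.53% for Car2, and in KI neutrophil cells 1.02% and 1.39%. Both genes were more than 2-fold lower in KI than in WT monocyte cells, where 2.7% of 9233 genes were 2-fold apart. The log2 ratio was -2.13 for Car1 and -1.19 for Car2, and without the cells of 10 or more it was -0.90 (-1.27 to -0.55) for Car1 and -0.18 (-0.46 to 0.10) for Car2. The part of doublets in these cells was not tested.

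**Figure D2:**
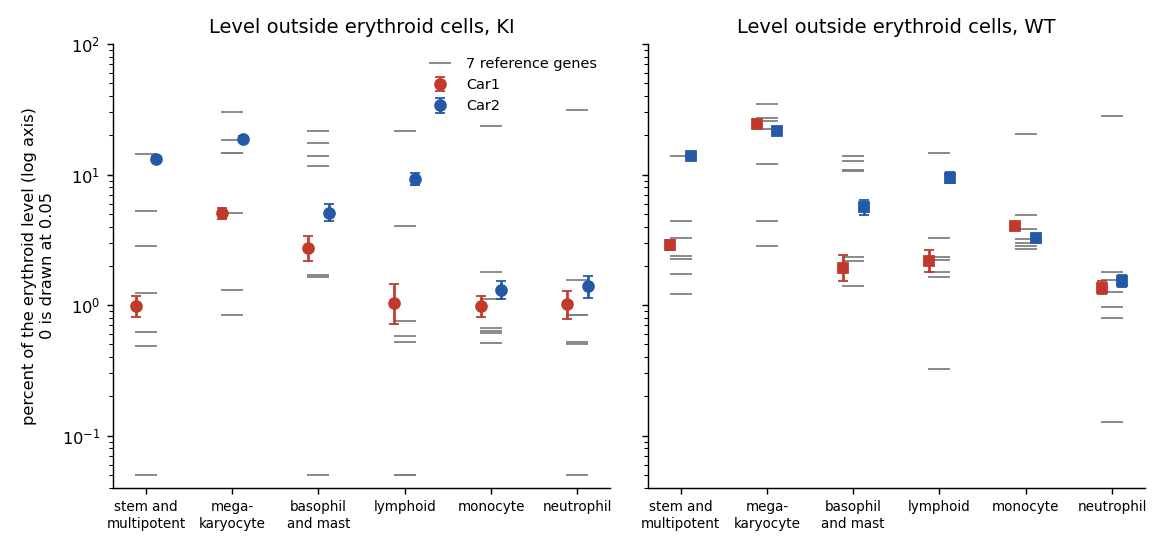
Level of Car1, Car2 and the 7 erythroid genes in each class outside the erythroid clusters, as a percent of the erythroid level in the same library on a log axis, with KI in the left panel, WT in the right, bars for 95% intervals, grey dashes for the 7 genes and a level of 0 drawn at 0.05. Car2 stands at 13.2% in KI and 13.9% in WT stem and multipotent cells, whereas Car1 lies at 0.979% in KI and 2.90% in WT.

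Set against the same 7 genes, Car2 was above their median, though not above Tfrc, in stem and lymphoid cells. It stood at 13.2% of its erythroid level in KI and 13.9% in WT stem cells, where the median of the 7 genes was 1.23% in KI and 2.39% in WT and Tfrc stood at 14.3% in KI and 13.9% in WT. In lymphoid cells it stood at 9.26% in KI and 9.48% in WT, against medians of 0.584% in KI and 2.22% in WT, with Tfrc at 21.7% in KI and 14.5% in WT. In basophil and mast cells Car2 was below the median of the 7 genes, at 5.11% against 11.7% in KI and 5.61% against 10.6% in WT. In megakaryocyte cells it stood at 18.7% against 14.5% in KI and at 21.5% against 22.2% in WT. Car1 in the same lymphoid cells was at 1.04% in KI and 2.20% in WT, from 34 KI and 102 WT UMIs. Its log2 ratio of KI over WT was -1.18 (-1.79 to -0.61), in a class where 1.96% of 5469 genes were 2-fold apart. Barcodes with at least 500 but under 1000 UMIs, below the filter, held 277 CPM of Car1 in KI and 471 CPM in WT, and 543 CPM of Car2 in KI and 500 CPM in WT. These 488 KI and 904 WT barcodes were not shown to be empty droplets.

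Measured at 50% of the highest level, Car1 came before Car2 along erythroid progress in both libraries. Cells were ranked by a score that rises with erythroid genes and falls with stem cell genes, neither gene being in it, and split into 10 bins over both libraries. With erythroid and stem cells alone, Car1 reached 50% of its highest level at 33.7% of the way in KI and 35.5% in WT. Car2 did so at 39.2% in KI and 39.1% in WT. The 4 unnamed clusters fill the middle of this axis, and adding them was chosen after seeing the data. On that fuller axis, of 2982 KI and 2770 WT cells, the positions were 34.6% in KI and 36.7% in WT for Car1, and 48.8% in KI and 47.5% in WT for Car2. The gap between the genes was thus 5.53 points in KI and 3.60 in WT without those clusters, and 14.2 points in KI and 10.8 in WT with them. Without the clusters the gap was narrower than 1 bin. It was 2.07 points in KI and 1.42 in WT with 20 bins. With the stem cell genes alone as the score it was 2.08 in KI and 1.04 in WT. After thinning to 1500 UMIs it was 1.59 in KI and 3.28 in WT. With the erythroid class alone no gap could be read, since both genes were already at 50% or more of their highest level in the first bin. Thinning to 5000 UMIs moved the Car1 position to 22.0% in KI and 22.3% in WT and the Car2 position to 27.5% in KI and 28.1% in WT. At 10% of the highest level the order was the other way, on the axis of erythroid and stem cells alone. Car2 was already above that level in the first bin, and Car1 reached it at 26.8% of the way in KI and 26.3% in WT.

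Car2 started from a higher base than Car1 and rose later. On the fuller axis the first bin had 56.9 CPM of Car1 in KI and 126 CPM in WT, while Car2 had 552 CPM in KI and 609 CPM in WT. Car2 first dipped, to 391.8 CPM in the second KI bin and 383 CPM in the third WT bin. By the fourth bin Car1 stood at 1701 CPM in KI and 1749 CPM in WT, and Car2 at 936 CPM in KI and 737 CPM in WT. Car1 was highest in the seventh KI bin at 3267 CPM and in the sixth WT bin at 3967 CPM. Car2 was highest in the last bin in both libraries, at 4209 CPM in KI and 3743 CPM in WT. Median depth also grew along the axis, to 17991 UMIs per cell in the last KI bin and 23476 in the last WT bin, and 10.0% of cells lay within 0.5 points of a bin edge.

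**Figure D3:**
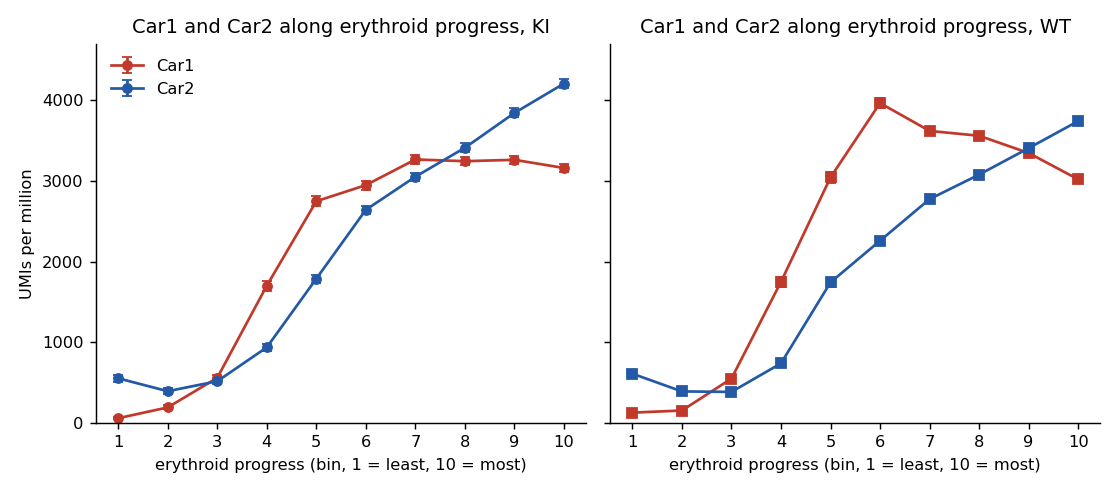
CPM of Car1 and Car2 in 10 bins of erythroid progress, from stem and multipotent cells at the left to the most advanced erythroid cells at the right, with KI in the left panel, WT in the right panel and bars for 95% Poisson intervals. Car1 climbs before Car2 in both libraries and then levels off in KI and declines in WT, while Car2 is still highest in the last bin.

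The late part of the Car1 curve differed in shape between the libraries. The last bin held 96.8% of the highest Car1 level in KI and 76.1% in WT. In the sixth bin Car1 had 2949 CPM in KI and 3967 CPM in WT, a log2 ratio of -0.43 (-0.46 to -0.39), and in the last bin 3161 CPM in KI and 3020 CPM in WT, a log2 ratio of 0.07 (0.04 to 0.10). Over the 10 bins the Car1 interval lay below 0 in 6 and above 0 in 2. The Car2 interval lay above 0 in 7 bins and below 0 in 1, with log2 ratios from -0.14 to 0.43. Each bin draws on different clusters in each library, and with 1 library of each genotype the genotype and the library cannot be told apart.

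The balance of Car1 to Car2 UMIs went from Car2 excess to Car1 excess and back to Car2 excess along the fuller axis. In the first bin there were 0.103 Car1 UMIs per Car2 UMI in KI and 0.207 in WT. The ratio was highest in the fourth bin, at 1.82 in KI and 2.37 in WT, and had come down to 0.751 in KI and 0.807 in WT in the last. Car1 exceeded Car2 beyond counting error in bins 4 to 7 in KI and bins 3 to 8 in WT. With erythroid and stem cells alone the highest ratio was 1.26 in KI, in the fourth bin and the only one where Car1 exceeded Car2 beyond counting error, and 1.53 in WT, in the fifth bin, with Car1 above Car2 in 4 bins. Over the whole erythroid class the ratio was 0.893 in KI (0.884 to 0.902) and 1.05 in WT (1.04 to 1.06). The WT ratio fell below 1 with other handling of doublets, to 0.952 with doublets kept and 0.971 with the top 5% of scores removed in both libraries. A ratio of UMIs need not equal a ratio of transcripts, since the genes may be captured with different efficiency.

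**Figure D4:**
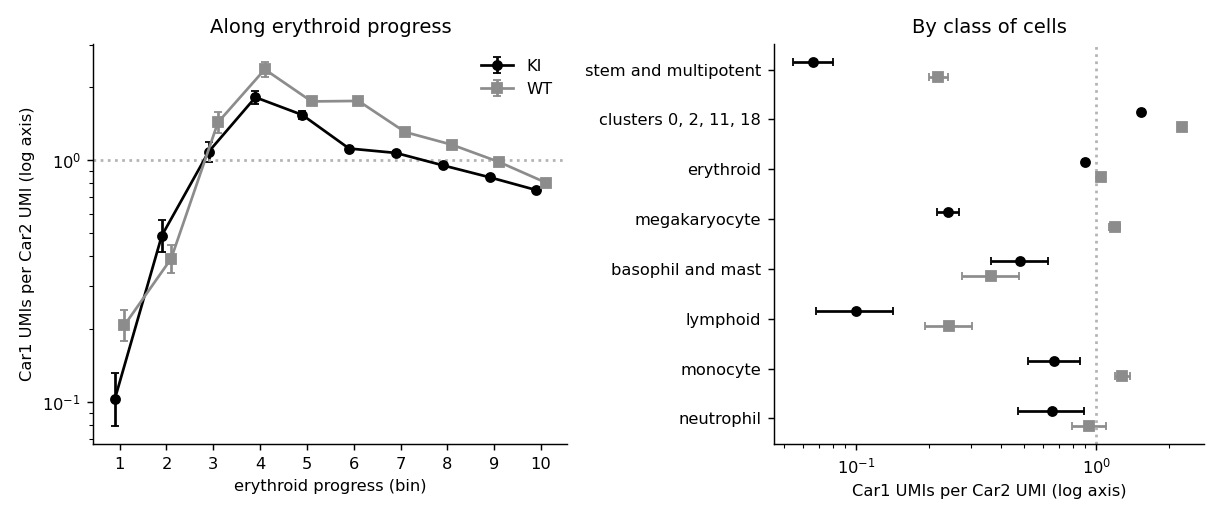
Car1 UMIs per Car2 UMI by progress bin (left) and by class (right) on log axes, with black circles for KI, grey squares for WT, bars for 95% binomial intervals and a dotted line at 1. The ratio peaks at 1.82 in KI and 2.37 in WT in the fourth bin, and the stem and lymphoid classes lie far below 1 in both libraries.

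The ratio also differed between clusters and classes. The ratio was 1.88 in cluster 0 and 1.44 in cluster 11, both of KI, and 2.40 in cluster 2, of WT. It was 0.0662 in KI and 0.220 in WT stem cells, and 0.10 in KI and 0.243 in WT lymphoid cells. In neutrophil cells it was 0.651 in KI and 0.931 in WT. Megakaryocyte and monocyte cells were below 1 in KI and above 1 in WT, at 0.241 in KI and 1.19 in WT megakaryocyte cells and 0.669 in KI and 1.28 in WT monocyte cells. Without cells of 10 or more Car1 UMIs the WT values were 0.248 in megakaryocyte and 0.921 in monocyte cells. Within the erythroid class, cluster 21, with 19 KI cells and 1 WT cell, was the most mature by its hemoglobin RNA, which made up 35.6% of the UMIs of its KI cells. There Car1 had only 91 UMIs or 702 CPM against 630 UMIs or 4862 CPM of Car2, a ratio of 0.144. Of its 18 KI cells with at least 3000 UMIs, 11 had no Car1 UMI after thinning and all had Car2.

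Nearly every erythroid cell held RNA of both genes. Their amounts had little correlation from cell to cell, weakly positive in KI and weakly negative in WT. After thinning to 3000 UMIs, 94.5% of 1210 KI cells and 96.0% of 1252 WT cells had both, 4.88% of KI and 3.75% of WT cells had Car2 alone, and 0.579% of KI and 0.160% of WT cells had Car1 alone. The median cell had 9 Car1 UMIs in KI (quartiles 5 and 14) and 10 in WT (5 and 14), and 10 Car2 UMIs in KI (7 and 14) and 9 in WT (6 and 13). Car1 was the higher of the pair in 42.7% of KI and 49.0% of WT cells, and Car2 in 52.3% of KI and 46.5% of WT cells. Spearman's correlation over cells was 0.11 in KI and -0.07 in WT, and the share of counting noise in this value was not measured.

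**Figure D5:**
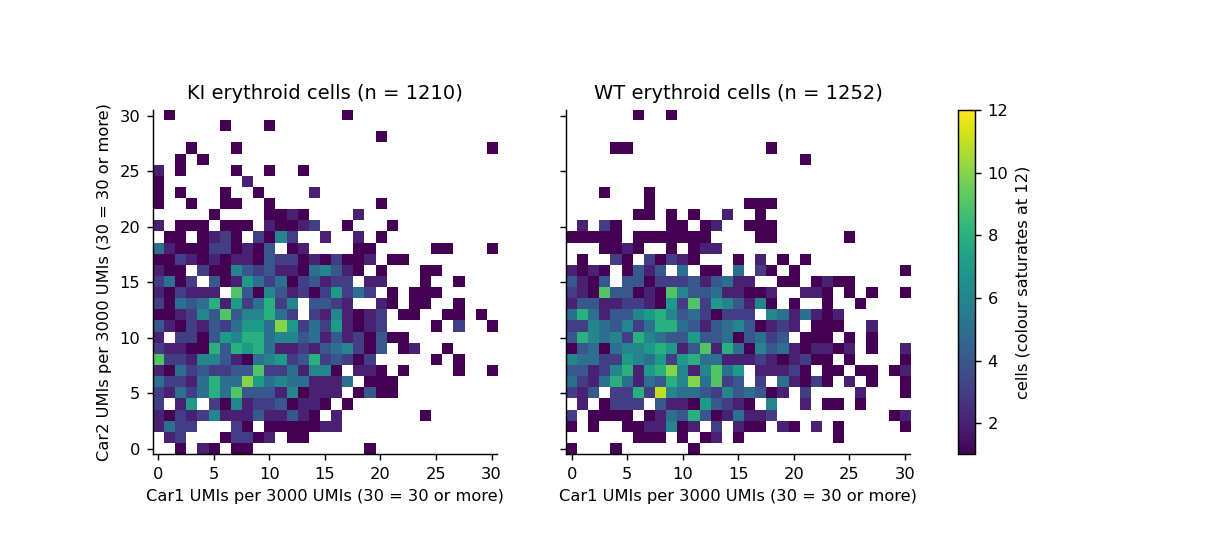
Car1 UMIs (horizontal) against Car2 UMIs (vertical) per erythroid cell after thinning to 3000 UMIs, KI left and WT right, with shading for the number of cells. The cells form 1 cloud around 9 and 10 UMIs in KI and 10 and 9 UMIs in WT with no clear slope.

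A wider range of cells gave a higher correlation. Over all kept cells that could be thinned it was 0.668 in KI and 0.670 in WT, where class differences enter. In the 4 unnamed clusters it was 0.36 in KI and 0.28 in WT, and there mean Car2 was 2.23 UMIs in KI and 2.29 in WT cells without Car1, and 7.44 in KI and 4.62 in WT cells with 15 or more Car1 UMIs. Those groups also differed in progress, so position and Car1 moved together. Within single bins of the fuller axis the correlation ran from -0.07 to 0.37 in KI and from -0.11 to 0.30 in WT. In erythroid cells Car2 correlated positively with all 19 rising progress genes measured in KI and all 18 in WT, at medians of 0.087 and 0.090. Car1 did so with 9 of 19 in KI and 3 of 18 in WT, at medians of -0.00019 and -0.035. The Car2 values were small, from 0.036 to 0.23 in KI and from 0.0042 to 0.19 in WT. The share of positive correlations over all genes was not computed, so a link of these counts to progress was not tested.

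Car1 varied more between erythroid cells than Car2. Its variance over mean after thinning was 3.65 in KI and 4.11 in WT, against 2.56 in KI and 2.09 in WT for Car2. Among genes with a mean of 7 to 14 UMIs, 15 in KI and 13 in WT, the median was 1.61 in KI and 1.28 in WT. Car1 ranked 3 from the highest in KI and 2 in WT, and Car2 ranked 4 in KI and 3 in WT. Cells without a Car1 UMI after thinning numbered 59 in KI and 48 in WT, and their mean Car2 was 11.3 ± 6.14 UMIs in KI and 9.44 ± 4.26 in WT (SD over cells).

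The rest of the carbonic anhydrase family was scarce. Of the 16 genes, 8 had at least 50 UMIs over all kept cells. Car1 had 204043 and Car2 had 197079, followed by Car3 with 863, Car9 with 737, Car13 with 413, Car12 with 123, Car7 with 70 and Car5b with 55. In erythroid cells 5 could be compared and none was 2-fold apart. Car3, a muscle form, had 6.52 CPM in KI and 5.65 CPM in WT. Car9, a hypoxia-induced membrane form, had 3.11 CPM in KI and 1.84 CPM in WT, a log2 ratio of 0.76 (0.21 to 1.32). Car13, a cytosolic form, had 2.77 CPM in KI and 5.05 CPM in WT, a log2 ratio of -0.87 (-1.33 to -0.41). The list's median log2 ratio was 0.14, beside 0.04 for all genes.

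Genes that move bicarbonate, protons, water or gases across membranes were mostly similar between the libraries. Of 26 listed, 17 had at least 50 UMIs and 13 could be compared in erythroid cells. None was lower and 1 was higher in KI by 2-fold, where 2.39% of all genes were higher and 1.84% lower, and the median log2 ratio was 0.08. The exception was Slc4a1, the band 3 anion exchanger that trades bicarbonate for chloride in red cells, with 143 UMIs in KI and 2 in WT. Its log2 ratio was 6.62 (4.74 to 9.68), and all 143 KI UMIs lay in cluster 21. Aqp1, a water channel, had 242 CPM in KI and 230 CPM in WT. Rhag, the Rh-associated ammonia and gas channel, had 59.7 CPM in KI and 95.5 CPM in WT, a log2 ratio of -0.68 (-0.78 to -0.58). Its partner Rhd had 167 CPM in KI and 227 CPM in WT, a log2 ratio of -0.44 (-0.50 to -0.38). Slc4a2, another anion exchanger, had 9.48 CPM in KI and 6.36 CPM in WT, a log2 ratio of 0.58 (0.28 to 0.88).

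Genes whose start lies within 500 kb of Car1 or Car2 numbered 11 including the pair, and 7 had at least 50 UMIs. None was 2-fold apart in erythroid cells, with a median log2 ratio of -0.02. Beside the family members these were 1810022K09Rik with 190 CPM in KI and 249 CPM in WT, Lrrcc1, a centrosomal protein gene, with 26.8 CPM in KI and 24.7 CPM in WT, and E2f5, a cell cycle transcription factor gene, with 5.11 CPM in KI and 5.19 CPM in WT.

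Different genes had the profiles most like Car1 and most like Car2. Likeness was Pearson's r of log2(CPM + 10) over 29 combinations of cluster and library, among 7461 genes. For Car1 the closest were Ermap (0.984), an erythroid membrane protein, Ces2g (0.975), Ccdc68 (0.974), Tspo2 (0.971), Slc25a21 (0.964), Mrpl52 (0.962), Col5a1 (0.958) and Blvrb (0.958). Ermap had 374 CPM in KI and 315 CPM in WT erythroid cells, and 1.81 CPM in KI and 5.51 CPM in WT stem cells. For Car2 they were Cela1 (0.953), Gtf2h3 (0.9503), Gfi1b (0.947), Nfia (0.939), Xrcc5 (0.937), Hemgn (0.936), Tcf3 (0.936) and Bex4 (0.936). Gfi1b, a transcriptional repressor of erythroid and megakaryocyte cells, had 172 CPM in KI and 163 CPM in WT erythroid cells, and 33.9 CPM in KI and 26.6 CPM in WT stem cells. Car1 and Car2 had an r of 0.873 with each other, which placed Car2 at rank 121 for Car1 and Car1 at rank 78 for Car2.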

How the data were processed

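Both libraries were droplet 3' single-cell RNA-seq (10x Chromium v2, per the labels). The authors deposited UMI counts per gene and barcode, made with Cell Ranger 3.1.0 per the file headers on the mm10 build, as the submitters' processing notes name it. Names were matched to GENCODE M21 for 31011 of 31053 gene IDs. A barcode was a cell if it had 500 or more genes, 1000 or more UMIs and no more than 10% of UMIs from mitochondrial genes. Doublet calling used Scrublet in scanpy 1.11.5, and where it marked under 0.5% of cells the top 5% of scores were removed instead. Cells were clustered jointly with leidenalg 0.10.2 (2000 variable genes, 30 components, resolution 1). Clustering ignored the carbonic anhydrases, Gata1, sex-linked marker genes (Xist, Tsix and the Y chromosome), ribosomal proteins and mitochondrial genes. The rule that names clusters from marker lists was chosen after seeing the clusters, as were the fuller progress axis and the limit of 10 Car1 UMIs. That limit applies to counts before thinning. CPM are UMIs summed per class and library. Genes were compared between libraries as KI over WT, with a threshold of 2-fold. Intervals are 95%, exact Poisson for levels, Clopper-Pearson for shares and conditional binomial for ratios, and cover counting error only. There was no test, since each genotype has 1 library. Named genes were the pair in every class and bin, listed family and transport genes with at least 50 UMIs, genes starting within 500 kb, and the 8 most alike for each. The members and lists were chosen with earlier results of these data known. Scripts were tested on simulated data.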

Additional observations from a re-analysis of the deposited data

How the results depend on the processing

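No paired analysis was possible because each genotype has 1 library. The erythroid log2 ratio of KI over WT for Car1 (-0.10) was -0.062 at clustering resolution 0.6, -0.076 at 1.6, -0.058 with doublets kept, -0.074 with the looser and -0.069 with the stricter cell filter, -0.15 as a median over cells, -0.15 with trimmed mean scaling, which shifts all genes by 0.052, and -0.12 without mitochondrial and ribosomal protein UMIs. For Car2 (0.14) it was 0.15 at resolution 0.6, 0.0025 with doublets kept, 0.10 with the looser and 0.12 with the stricter filter, 0.15 within the same progress bin, 0.084 with trimmed mean scaling and 0.12 without mitochondrial and ribosomal protein UMIs. Alternatives chosen after seeing the data gave -0.20 for Car1 and 0.0079 for Car2 with clusters 0, 2, 11 and 18 in the class, and -0.062 and 0.052 with the top 5% of doublet scores removed in both libraries.

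Car1 UMIs per Car2 UMI (0.893 in KI and 1.05 in WT) were 0.906 in KI at resolution 0.6, 1.04 in WT at 1.6, 0.913 in KI and 0.952 in WT with doublets kept, 0.913 in KI and 1.03 in WT with the looser filter, 1.03 in WT with the stricter filter, and 0.971 in WT with the top 5% removed in both. The Car1 level in myeloid cells (0.994% in KI and 3.07% in WT of the erythroid level) was 0.732% in KI and 1.38% in WT without the top 1% of cells, 0.818% in KI and 1.14% in WT without cells of 10 or more Car1 UMIs, and in WT 2.45% with doublets kept, 4.41% with the stricter filter and 1.37% with the top 5% removed in both. For Car2 (1.34% in KI and 2.66% in WT) it was 1.06% in KI and 1.33% in WT without the top 1% of cells, and in WT 1.69% with doublets kept, 3.73% with the stricter filter, 1.25% with the top 5% removed in both and 1.39% without cells of 10 or more Car1 UMIs. The per-cell correlation was 0.656 in KI and 0.607 in WT over erythroid and stem classes together, a reversal in WT. With the top 5% removed in both libraries, the log2 ratio reversed for Car1 in neutrophil cells (0.34) and for Car2 in monocyte cells (0.029). Values whose own interval held 0 also changed sign: Car1 in basophil and mast cells (0.40) was -0.56 (-0.95 to -0.19) with the stricter filter, and Car2 in megakaryocyte cells (-0.06) was 0.18 to 0.28 under 5 of 6 alternatives. The cause of these changes was not tested. The gap from Car1 to Car2 along progress ran from 0 to 14.2 points in KI and 0 to 10.8 in WT and never reversed. The Car1 log2 ratio in stem cells ran from -2.37 to -1.01 and in megakaryocyte cells from -2.20 to -0.28. Low-level classes rest on 34 to 1580 Car1 UMIs per library, which limits their precision.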
